A study of Mus musculus with 16 samples.

Results

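The transcription factors that build and keep microglial identity were examined as a set of 9 genes chosen by symbol, *Sall1*, *Sall3*, *Mef2a*, *Mef2c*, *Irf8*, *Spi1*, *Runx1*, *Cebpa* and *Bhlhe41*, out of 55385 genes listed. All 9 passed the filter on low counts that 14513 genes passed. The libraries came from mice 20 weeks old, with 4 libraries in each of 4 genotypes. The study's methods name female 5xFAD mice among the mice that were crossed. WT mice carried intact *Card9* and no transgenes, *Card9*-/- mice carried a germline deletion of the adaptor gene *Card9*, 5xFAD mice carried the amyloid-producing human transgenes of that line, which neurons express from the Thy1 promoter, and *Card9*-/-5xFAD mice carried both. RNA was taken from cells held on a magnetic column by beads against CD11b, a surface protein that other myeloid cells carry too, after the meninges and choroid plexus had been taken out. The reads on genes ranged from 2970148 to 19333325 per library. Counts of the members ranged from 70 for *Cebpa* in one library to 22754 for *Mef2c* in another. All 10 microglial markers were detected in every library (*Cx3cr1*, the fractalkine receptor, at 2384 to 6734 CPM, counts scaled to library size), while the 8 neuronal markers summed to 1.60 to 20.3 CPM. Summed markers of astrocytes ran from 171 to 348 CPM and those of oligodendrocytes from 192 to 942 CPM. Those of choroid plexus and ependyma ran from 3.06 to 2501 CPM, so transcripts of other brain cells were present.

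*Card9* itself did not separate the genotypes. It was read at 13.6 to 51.3 CPM in the 8 libraries of mice labelled as carrying *Card9* and at 9.73 to 34.8 CPM in the 8 libraries labelled *Card9*-deficient, so the ranges overlapped and these counts give no check of the *Card9* labels. Which exons were deleted is not given in the sources used here, and reads outside them would check nothing. Groups are therefore called by their labels.

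Microglia are the resident macrophages of the brain. PU.1, the product of *Spi1*, opens macrophage enhancers, and it works there with IRF8, RUNX1 and C/EBP factors. SALL1 and SALL3, zinc finger proteins, and the MADS-box factors MEF2A and MEF2C add the part of the programme that sets microglia apart from other macrophages, and BHLHE41 is a repressor that macrophages share with its close relative BHLHE40. In amyloid models, microglia near plaques are known to lose part of their resting gene expression, and the comparisons here ask whether RNA of these factors differed with the transgenes, with the *Card9* label, or with both.

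On GRCm38 (mm10), with GENCODE M21 gene models, *Sall1* lies on chromosome 8 from 89027235 to 89044162, *Irf8* on chromosome 8 from 120736358 to 120756694, *Mef2a* on chromosome 7 from 67231163 to 67372858, *Mef2c* on chromosome 13 from 83504034 to 83667080 and *Cebpa* on chromosome 7 from 35119293 to 35121928. *Runx1* lies on chromosome 16 from 92601466 to 92826149, *Bhlhe41* on chromosome 6 from 145858243 to 145865558, and *Spi1* on chromosome 2 from 91082390 to 91115756. *Card9* is on the same chromosome as *Spi1*, from 26352176 to 26360918. The strand setting of the counting is not given in the sources used here. On the opposite strand, *Mef2a*, *Runx1*, *Cebpa* and *Bhlhe41* overlap annotated genes (*Lysmd4*, *Gm26626*, *Gm45091* and *Gm43909*), and reads of such pairs cannot be told apart if strand was not used. *Mef2a* and *Irf8* also overlap genes annotated on their own strand (*Gm44667* and *Gm44668* for *Mef2a*, *Gm20388* for *Irf8*).

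RefSeq promoter windows of 300 bases, 250 before and 50 after each annotated start, were at hand for 7 of the 9 members, 13 windows in all (GRCm38.p6). They were searched on both strands for 1 motif of each factor family among the members except SALL, for which no motif was searched. The motifs were GAGGAAGT for PU.1, TTGCNNAA for C/EBP, TGTGGTT for RUNX, the E-box CACGTG for BHLHE41, and the MEF2 and IRF consensus motifs. The 3 windows that held a match are shown because each carries the motif of the family that its own gene belongs to. Capitals mark the matches, and each sequence runs 5′ to 3′ on the strand of its gene (minus in all 3).
Mef2a, chr7:67372809-67373108: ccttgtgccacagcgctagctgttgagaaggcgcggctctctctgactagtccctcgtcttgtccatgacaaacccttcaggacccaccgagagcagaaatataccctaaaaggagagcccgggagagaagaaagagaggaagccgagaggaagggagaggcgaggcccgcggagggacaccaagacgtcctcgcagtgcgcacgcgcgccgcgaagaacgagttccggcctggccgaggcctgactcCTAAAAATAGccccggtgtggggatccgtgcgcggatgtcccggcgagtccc
Runx1, chr16:92826025-92826324: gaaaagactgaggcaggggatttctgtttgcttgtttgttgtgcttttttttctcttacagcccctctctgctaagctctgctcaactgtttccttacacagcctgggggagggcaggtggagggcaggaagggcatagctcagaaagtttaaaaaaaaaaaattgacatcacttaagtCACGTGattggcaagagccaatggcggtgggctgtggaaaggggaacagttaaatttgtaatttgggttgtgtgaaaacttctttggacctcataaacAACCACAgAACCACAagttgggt
Bhlhe41, chr6:145865371-145865670: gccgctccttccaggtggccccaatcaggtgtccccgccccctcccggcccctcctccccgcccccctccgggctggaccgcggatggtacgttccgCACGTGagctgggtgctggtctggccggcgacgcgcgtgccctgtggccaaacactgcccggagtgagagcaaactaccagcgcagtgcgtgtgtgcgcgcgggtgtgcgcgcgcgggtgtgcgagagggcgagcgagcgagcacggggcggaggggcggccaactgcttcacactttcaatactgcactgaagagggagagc
The *Mef2a* window held 1 MEF2 match, written CTAAAAATAG, at the annotated start, and 3.69% of 32851 promoters held this motif. The *Runx1* window held 2 RUNX matches, both written AACCACA because they lie on the other strand (5.27% of promoters), and 1 E-box (7.15%). The *Bhlhe41* window held the E-box. The PU.1, C/EBP and IRF motifs (3.20%, 10.8% and 3.44% of promoters) were not found in the 13 windows. A match is a description of letters and not a binding site.

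Set against exon length, the members differed widely in level. Over the 16 libraries, *Spi1* stood highest at 198 ± 56.1 CPM per kb of exon (SD, n = 16), followed by *Irf8* at 90.7 ± 25.9, *Mef2c* at 62.2 ± 9.96 and *Sall1* at 47.1 ± 13.4 CPM per kb. *Bhlhe41* (31.3 ± 12.9 CPM per kb) and *Mef2a* (30.05 ± 6.87 CPM per kb) were closer to each other than their SDs. At the lower end, *Sall3* (12.3 ± 7.21 CPM per kb) was closer than the SDs to both *Cebpa* (15.2 ± 10.2 CPM per kb) and *Runx1* (10.5 ± 2.78 CPM per kb). *Mef2c* varied least between libraries, with a coefficient of variation of 16.03% in CPM, and *Cebpa* varied most, at 66.7%.

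**Figure D1:**
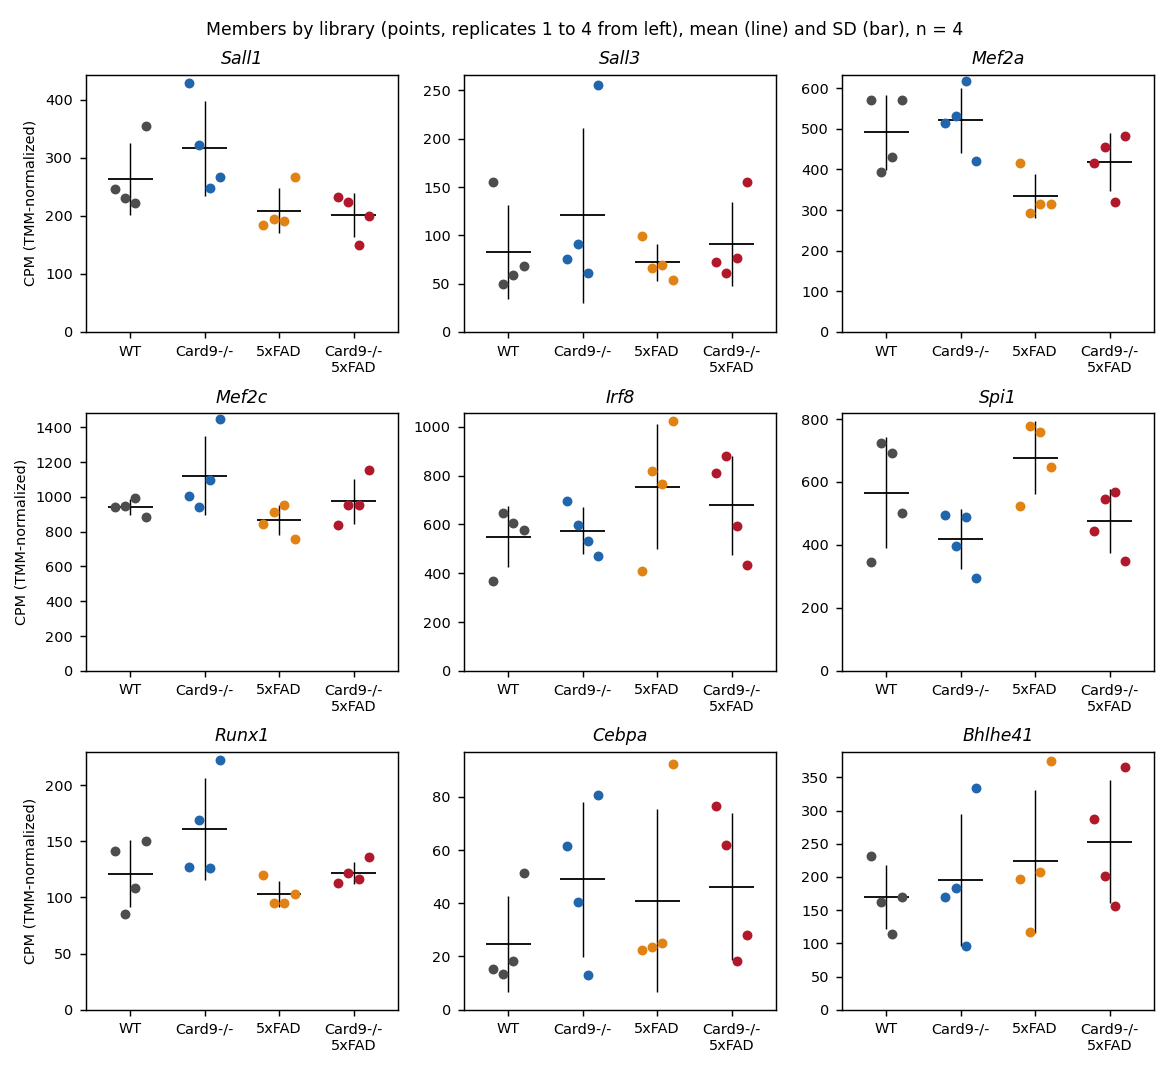
CPM (TMM-normalized, linear axes from 0) of the 9 members in each library, by genotype. Points are libraries in replicate order, horizontal lines are means and vertical bars are SDs (n = 4). *Sall1* and *Mef2a* sat lower in most libraries with transgenes, and single libraries stood far above the rest for *Sall3* (255 CPM in *Card9*-/- replicate 4) and *Cebpa* (92.5 CPM in 5xFAD replicate 4).

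The transgenes were compared first over both *Card9* labels, 8 libraries against 8, which gives the highest precision in this design. None of the 9 members passed a false discovery rate (FDR) of 0.1, while 11.3% of all genes did (edgeR's quasi-likelihood test with Benjamini-Hochberg adjustment, 1647 of 14513 genes). *Sall1* and *Mef2a* came nearest, both lower with the transgenes, and 2 of 9 members had an unadjusted p under 0.05 against 22.8% of all genes. The members' median log2 fold change was -0.16, beside -0.15 for all genes tested, and 5 of 9 members were lower, beside 61.7% of all genes. The median of all genes moved with the scaling and filter, from -0.23 to 0.01, so the members' values are to be read against it. For none of the 9 members were the 8 and 8 libraries apart, as they were for 1.66% of all genes.

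*Sall1*, the zinc finger gene that in the brain marks microglia among macrophages, was read in WT at 246, 232, 223 and 355 CPM (replicates 1 to 4) and in 5xFAD at 184, 195, 190.5 and 267 CPM. In the libraries labelled *Card9*-/- it was read at 429.8, 322, 247 and 268 CPM, and in those labelled *Card9*-/-5xFAD at 233, 224, 149.8 and 200.2 CPM. Of the 8 libraries with transgenes, 5 lay below every library without them and 7 lay below the median without them. The log2 fold change was -0.49 (SE 0.19, 95% interval -0.90 to -0.09), a ratio of 0.71, with an unadjusted p of 0.0195 and an FDR of 0.133 in edgeR's quasi-likelihood test, so the call was missed.

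*Mef2a*, a partner of MEF2C in driving resting microglial genes, was read in WT at 572, 394, 430.1 and 569.9 CPM and in 5xFAD at 415, 294, 314 and 314 CPM. In the libraries labelled *Card9*-/- the values were 514, 532, 617 and 420.4 CPM, against 416, 454, 319.9 and 483 CPM in those labelled *Card9*-/-5xFAD. All 8 libraries with transgenes lay below the median without them, and 4 lay below every library without them. Its log2 fold change was -0.44 (SE 0.18, 95% interval -0.81 to -0.07), with an unadjusted p of 0.0240 and an FDR of 0.149 in edgeR's quasi-likelihood test.

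The calls of these 2 genes depended on the fit. With DESeq2, the tool the study used, both *Sall1* (log2 fold change -0.42, adjusted p 0.0669) and *Mef2a* (-0.37, adjusted p 0.0670) passed 0.1, beside 13.8% of the genes DESeq2 tested. Leaving out the 3 libraries with the fewest reads, a choice made after seeing the data, also gave both calls (FDR 0.0656 and 0.0577 in edgeR's quasi-likelihood test), beside 33.0% of all genes, and so did leaving out *Card9*-/- replicate 4 alone (FDR 0.0854 and 0.0839), beside 20.5% of all genes. With 1 surrogate variable in the fit, 4 members passed, *Sall1* (FDR 0.0236), *Mef2a* (FDR 0.0275), *Irf8* (FDR 0.0597) and *Runx1* (FDR 0.0712), while the count of all genes called went from 1647 to 5708 (39.3%).

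The libraries also differed in how expression varied with exon length. The slope of a library's log2 expression, relative to the mean library, on log2 exon length ran from -0.14 to 0.29 (median 0.08) without transgenes and from -0.22 to 0.14 (median -0.14) with them. With this slope as a covariate, added after seeing the data, *Sall1* stood at -0.33 (FDR 0.159) and *Mef2a* at -0.41 (FDR 0.111), while *Irf8* (0.57, FDR 0.0415) and *Sall3* (-0.63, FDR 0.0750) passed 0.1 in edgeR's quasi-likelihood test, beside 24.5% of all genes. How far the slope, or what lies behind it, takes part in the differences was not tested. In bulk RNA, fewer cells that express a gene and less of its RNA per cell cannot be told apart.

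The other MEF2 gene and *Sall3* gave no call. *Mef2c* was read at 887 to 1446 CPM without transgenes (median 971) and at 759 to 1153 CPM with them (median 933), a log2 fold change of -0.16 (95% interval -0.51 to 0.18, FDR 0.588). *Sall3*, the paralog of *Sall1*, had medians of 71.9 CPM without and 70.8 CPM with transgenes. Its fitted difference of -0.30 (95% interval -1.01 to 0.41, FDR 0.628, edgeR's quasi-likelihood test) turned to 0.12 (FDR 0.660) without the 3 libraries with the fewest reads.

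Among the factors that all macrophages use, *Irf8* was higher and *Runx1* lower with the transgenes, neither past the threshold. *Irf8*, which encodes an interferon regulatory factor that partners PU.1, was read in 5xFAD at 411, 821, 766 and 1023 CPM and in WT at 369, 647, 607 and 579 CPM. In the libraries labelled *Card9*-/-5xFAD it was read at 809, 879, 595 and 434 CPM, against 694, 599, 533 and 471 CPM in those labelled *Card9*-/-. The ranges overlapped widely, although 5 of the 8 libraries with transgenes lay above every library without them, and the log2 fold change was 0.35 (95% interval -0.13 to 0.83, FDR 0.380). *Runx1* had a median of 134 CPM without and 115 CPM with transgenes (log2 fold change -0.32, 95% interval -0.70 to 0.06, FDR 0.309). *Spi1* had medians of 493 and 557 CPM (0.22, 95% interval -0.22 to 0.66, FDR 0.555, edgeR's quasi-likelihood test).

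*Cebpa* and *Bhlhe41* also gave no call, with wide intervals. *Cebpa* ran from 12.98 to 80.8 CPM without transgenes and from 18.2 to 92.5 CPM with them. Its interval of -0.62 to 1.28 around a log2 fold change of 0.33 held 0 (FDR 0.702). *Bhlhe41* ran from 95.9 to 334 CPM without and from 117 to 374 CPM with transgenes (log2 fold change 0.38, 95% interval -0.24 to 1.01, FDR 0.466, edgeR's quasi-likelihood test).

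Within each *Card9* label, 4 libraries against 4, *Mef2a* had the lowest p in 1 comparison and *Sall1* in the other. *Sall1* had an unadjusted p of 0.228 in 5xFAD against WT (edgeR's quasi-likelihood test). *Mef2a* had an unadjusted p of 0.219 in *Card9*-/-5xFAD against *Card9*-/- (edgeR's quasi-likelihood test). In 5xFAD against WT no member passed FDR 0.1, beside 2.09% of all genes, and no member's groups failed to overlap, beside 8.04% of all genes. DESeq2 called no member in it either, beside 3.24% of the genes it tested. For 1 member the test gave an unadjusted p under 0.05, beside 10.8% of all genes. *Mef2a* had the lowest p there (log2 fold change -0.56, SE 0.25, 95% interval -1.08 to -0.03, unadjusted p 0.0395, FDR 0.427). In *Card9*-/-5xFAD against *Card9*-/-, no member passed, beside 1.97% of all genes in edgeR's quasi-likelihood test and 4.81% in DESeq2, and 1 member had an unadjusted p under 0.05, beside 12.2% of all genes. *Sall1* was lowest in p (-0.65, SE 0.27, 95% interval -1.22 to -0.08, unadjusted p 0.0282, FDR 0.322, edgeR's quasi-likelihood test), and it was the only member in the 4 simple comparisons whose groups did not overlap, 149.8 to 233 CPM against 247 to 429.8 CPM, as 7.01% of all genes did in that comparison. The 2 comparisons were also set against each other. For none of the members did the transgene difference change with the *Card9* label (FDR 1 for all 9, lowest unadjusted p 0.385 for *Cebpa*, edgeR's quasi-likelihood test), beside 0% of all genes called and 0.537% with an unadjusted p under 0.05. DESeq2 called 1 gene there (0.00338%), and no member. These intervals were wide, up to 1.90 on either side on the log2 scale for *Cebpa*, so sizeable differences in response would not have been detected.

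**Figure D2:**
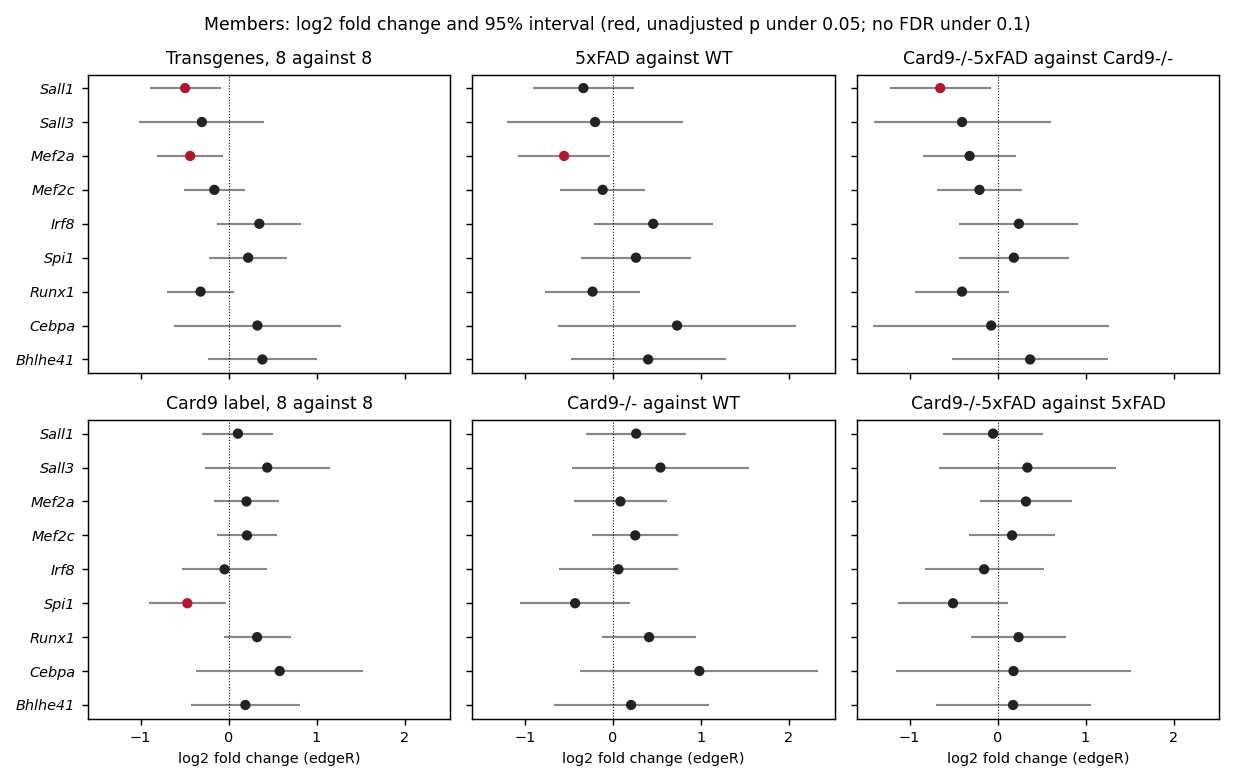
log2 fold change (horizontal axis, edgeR) of the 9 members (vertical axis) in 6 comparisons. Points are estimates, lines are 95% intervals, and red marks an unadjusted p under 0.05. *Sall1* and *Mef2a* lie left of 0 with the transgenes and *Spi1* left of 0 with the *Card9* label, and none passed FDR 0.1.

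The *Card9* label was compared in the same way. No member passed FDR 0.1 over both transgene states, 8 libraries against 8, beside 0.0276% of all genes, nor in *Card9*-/- against WT or *Card9*-/-5xFAD against 5xFAD, in each of which 0% of all genes passed. In those 2 comparisons 4.11% and 2.52% of all genes had an unadjusted p under 0.05 and no member did, and DESeq2 called 5 and 2 genes (0.0169% and 0.00675%), none of them members. No member's groups were apart in either, beside 2.66% and 1.89% of all genes, or in the averaged comparison, beside 0.0207%. DESeq2 called 0.255% of genes in the averaged comparison, again with no member. *Spi1*, which encodes PU.1, was the single member with an unadjusted p under 0.05 in the averaged comparison, beside 9.12% of all genes.

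*Spi1* was read in WT at 345, 723, 691 and 502 CPM and in the libraries labelled *Card9*-/- at 496, 396, 489 and 295 CPM. With transgenes it was read at 525, 777, 757 and 648 CPM in 5xFAD and at 444, 545, 568 and 349 CPM in the libraries labelled *Card9*-/-5xFAD. All 8 libraries labelled *Card9*-deficient lay below the median of the other 8, 669.5 CPM, yet only 1 lay below all of them. The log2 fold change was -0.47 (SE 0.21, 95% interval -0.91 to -0.03), with an unadjusted p of 0.0389 and an FDR of 0.530 in edgeR's quasi-likelihood test. Under the other settings the difference ran from -0.58 to -0.43 and the FDR from 0.102 to 0.827. *Spi1* (from 91082390) and *Card9* (from 26352176) share chromosome 2 but lie far apart on it. The strain in which the deletion was made and the extent of backcrossing are not given in the sources used here. The label and the chromosome around *Card9* therefore cannot be told apart, and whether such a stretch reaches *Spi1* is not known here.

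The other 8 members gave intervals that held 0 in the averaged comparison. *Runx1* had the next lowest p (log2 fold change 0.32, 95% interval -0.06 to 0.70, FDR 0.581), with medians of 106 CPM in *Card9*-intact and 127 CPM in *Card9*-deficient libraries, and no *Card9*-deficient library below the first of these. *Cebpa* had the largest estimate (0.58, 95% interval -0.37 to 1.53, FDR 0.669) and *Irf8* the smallest (-0.05, 95% interval -0.52 to 0.43, FDR 0.955, edgeR's quasi-likelihood test). The members' median was 0.20, beside 0.13 for all genes. Mean early response expression, from 18 genes switched on quickly by stimulation or cell dissociation, ran from 6.78 to 8.42 (log2 CPM) in *Card9*-intact and from 7.63 to 8.71 in *Card9*-deficient libraries. Its part in the members' differences was not tested.

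Ordered by mean, neighbouring genotypes did not separate for most members. In 8 of 9 members, no 2 neighbours in that order differed by more than both of their SDs. The exception was *Mef2a*, in which 5xFAD (334 ± 54.4 CPM, n = 4) stood below *Card9*-/-5xFAD (418 ± 71.0 CPM, n = 4) with ranges that still overlapped, while WT (491 ± 92.8 CPM) and *Card9*-/- (521 ± 80.6 CPM) could not be told apart. *Sall1* ran from *Card9*-/- (317 ± 81.7 CPM) through WT (264 ± 61.7 CPM) and 5xFAD (209 ± 38.6 CPM) to *Card9*-/-5xFAD (202 ± 37.3 CPM). *Card9*-/- and 5xFAD differ in both the *Card9* label and the transgenes and were not tested against each other. Their ranges did not overlap for *Mef2a* and *Runx1*, higher in *Card9*-/-, or for *Spi1*, higher in 5xFAD. For *Mef2a* the nearest libraries stood at 420.4 CPM in *Card9*-/- and 414.6 CPM in 5xFAD. The share of all genes apart between these genotypes was not computed, so this is a description only.

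Much of the variation in these genes lay between libraries of the same genotype. After genotype means were subtracted from log2 CPM, 8 of the 36 pairs of members were correlated over the 16 libraries at an adjusted p under 0.1 (100000 permutations within genotypes, two-sided, Benjamini-Hochberg over 36 pairs), 3 positively and 5 negatively. By Spearman's rho 7 pairs passed, 6 of these 8 and *Runx1* with *Bhlhe41* (rho = 0.67, adjusted p = 0.0473, r = 0.56, adjusted p = 0.134, permutation). The share of pairs correlated in this way among all genes was not computed. The counts of pairs are therefore a description and not a trait of these factors. *Spi1* ran against *Sall3* (r = -0.88, p = 0.0006, adjusted p = 0.0096, rho = -0.78, p = 0.0026, permutation), and r stayed at -0.85 without the 2 libraries farthest from the median. It also ran against *Runx1* (r = -0.83, p = 0.0008, adjusted p = 0.0096, rho = -0.86, p = 0.0008, r = -0.78 without 2 libraries, permutation). Against *Bhlhe41* it stood at r = -0.71 (p = 0.0037, adjusted p = 0.0220; rho = -0.73, p = 0.0030; r = -0.62 without 2 libraries; permutation).

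The macrophage factors *Irf8* and *Spi1* varied together (r = 0.69, p = 0.0057, adjusted p = 0.0293, rho = 0.50, p = 0.0454, r = 0.70 without 2 libraries, permutation). *Sall3* paired with *Runx1* (r = 0.78, p = 0.0012, adjusted p = 0.0110, rho = 0.74, p = 0.0061, r = 0.65 without 2 libraries, permutation). *Irf8* ran against *Sall3* (r = -0.75, p = 0.0006, adjusted p = 0.0096, rho = -0.69, p = 0.0042, r = -0.76 without 2 libraries, permutation). It also ran against *Runx1* (r = -0.52, p = 0.0172, adjusted p = 0.0775, rho = -0.48, p = 0.0409, r = -0.51 without 2 libraries, permutation). The call of *Irf8* with *Runx1* was kept in 5 of the 16 sets that left out 1 library. Neither *Irf8* with *Spi1* nor *Irf8* with *Runx1* passed by rho (adjusted p = 0.151 for both, permutation). *Sall1* and *Cebpa* varied together (r = 0.79, p = 0.0030, adjusted p = 0.0213, rho = 0.69, p = 0.0088, r = 0.79 without 2 libraries, permutation). The paralogs *Sall1* and *Sall3* gave r = -0.20 (p = 0.560, adjusted p = 0.720, permutation), and *Mef2a* and *Mef2c* gave r = -0.23 (p = 0.433, adjusted p = 0.614, permutation).

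**Figure D3:**
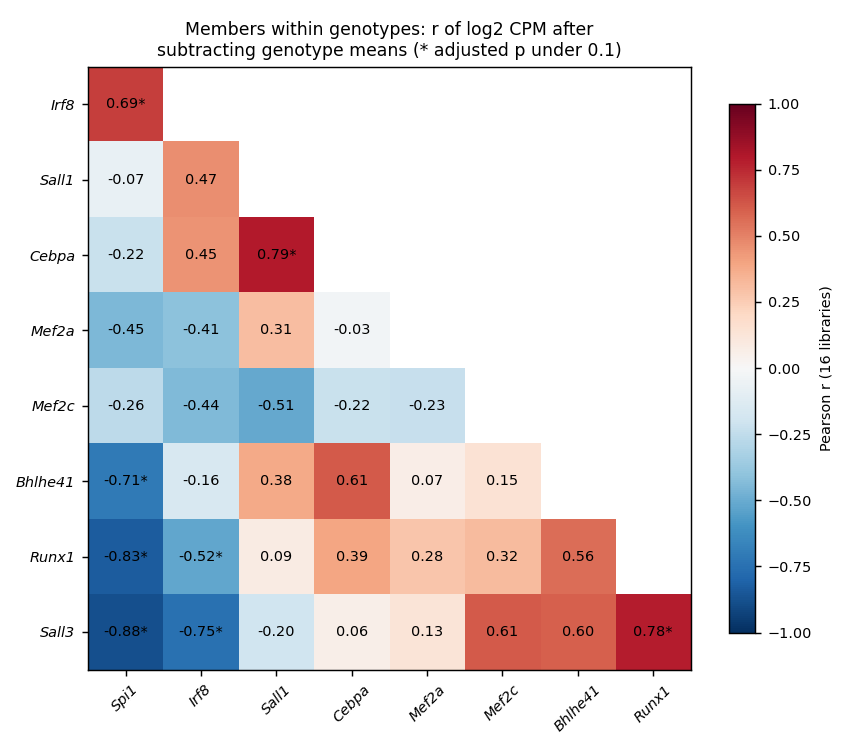
Pearson r between members over 16 libraries, computed on log2 CPM after subtracting each genotype's mean. Colour and number give r (scale -1 to 1), and a star marks an adjusted p under 0.1. *Spi1* and *Irf8* share positive r with each other and negative r with *Sall3* and *Runx1*, and *Sall1* pairs with *Cebpa*.

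Most of these calls were lost without 3 libraries. WT replicate 1, *Card9*-/- replicate 4 and *Card9*-/-5xFAD replicate 4 had the fewest reads on genes (2970148 to 5346747, against at least 6081583 in the other 13) and the highest summed neutrophil markers, 8 genes such as *S100a8* and *S100a9* (3587 to 6266 CPM, against 486 to 2229 CPM). None of the 8 genes was at 0 throughout a genotype, and 5 of them passed 10 CPM in every genotype. Summed border macrophage markers were high there too, at 1806 to 2014 CPM against 462 to 1423 CPM. Each held *Sall3* at 155 to 255 CPM, against 49.9 to 98.9 CPM in the other 13, and *Spi1* at 295 to 349 CPM, against 396 to 777 CPM. Without these 3 libraries, 1 pair of 36 passed by Pearson's r, *Sall1* with *Cebpa* (r = 0.96, p = 0.0022, adjusted p = 0.0803, rho = 0.92, p = 0.0032, 13 libraries, permutation), and 3 passed by rho. *Spi1* with *Runx1* then stood at r = -0.82 (adjusted p = 0.1004) and passed by rho (rho = -0.74, adjusted p = 0.0887, permutation). *Irf8* with *Sall3* stood at r = -0.73 (adjusted p = 0.138), *Sall3* with *Runx1* at r = 0.64 (adjusted p = 0.102) and *Spi1* with *Sall3* at r = -0.60 (adjusted p = 0.200, permutation). In relations added after seeing the data, over all 16 libraries and within genotypes, *Sall3* followed the neutrophil marker sum (r = 0.84, p = 0.0032, adjusted p = 0.0230 over 36 relations, rho = 0.50, p = 0.0718, r = 0.64 without 2 libraries, permutation). *Sall3* ran against the number of reads (r = -0.81, p = 0.0061, adjusted p = 0.0367, rho = -0.68, p = 0.0128, r = -0.47 without 2 libraries, permutation). With the neutrophil marker sum, *Mef2c* stood at r = 0.78 (adjusted p = 0.0378), *Irf8* at r = -0.69 (adjusted p = 0.0222) and *Spi1* at r = -0.67 (adjusted p = 0.0378, permutation), and r went to 0.36, -0.61 and -0.44 without 2 libraries. With reads, *Mef2c* stood at r = -0.78 (adjusted p = 0.0406) and *Irf8* at r = 0.53 (adjusted p = 0.0378, permutation), and r went to -0.25 and 0.32 without 2 libraries. Depth and the marker sums cannot be told apart in these 3 libraries.

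The *Sall1* and *Cebpa* pair did not rest on those libraries. *Cebpa* was read at 15.3, 13.4, 18.4 and 51.6 CPM in WT and at 61.7, 40.6, 12.98 and 80.8 CPM in the libraries labelled *Card9*-/-. It was read at 22.4, 23.4, 25.2 and 92.5 CPM in 5xFAD and at 76.7, 61.8, 18.2 and 28.0 CPM in the libraries labelled *Card9*-/-5xFAD. The WT and 5xFAD libraries highest in *Cebpa*, replicate 4 in both, were also the highest in *Sall1* in their genotypes. The same held for replicate 1 of *Card9*-/-5xFAD. It did not hold in *Card9*-/-, where replicate 4 was highest in *Cebpa* but held *Sall1* at 268 CPM, below 429.8 CPM in replicate 1. *Cebpa* followed mean early response expression within genotypes (r = 0.74, p = 0.0019, adjusted p = 0.0222 over 36 relations, rho = 0.77, p = 0.0024, r = 0.78 without 2 libraries, permutation). So did *Irf8* (r = 0.74, p = 0.0116, adjusted p = 0.0379, rho = 0.67, p = 0.0186, r = 0.62 without 2 libraries, permutation). *Sall1* gave r = 0.48 with the same measure (p = 0.0674, adjusted p = 0.152; rho = 0.42, p = 0.132; r = 0.45 without 2 libraries; permutation).

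The exon length slope also moved with members within genotypes. These relations were computed after seeing the data. *Irf8* followed it (r = 0.76, p = 0.0025, adjusted p = 0.0222, rho = 0.76, p = 0.0067, r = 0.83 without 2 libraries, permutation). *Sall1* did so too (r = 0.68, p = 0.0147, adjusted p = 0.0406, rho = 0.69, p = 0.0114, r = 0.70 without 2 libraries, permutation). *Mef2c* ran the other way (r = -0.80, p = 0.0024, adjusted p = 0.0222, rho = -0.76, p = 0.0032, r = -0.81 without 2 libraries, permutation), as did *Sall3* (r = -0.73, p = 0.0077, adjusted p = 0.0378, rho = -0.64, p = 0.0168, r = -0.75 without 2 libraries, permutation). *Mef2a* gave r = 0.16 (p = 0.584, adjusted p = 0.7003; rho = 0.13, p = 0.655; r = 0.32 without 2 libraries; permutation).

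Close relatives of the members were then examined from a list of 22 genes of the same families, of which 17 passed the filter. Over both *Card9* labels, 1 of the 17 rose with the transgenes, 2 fell and 14 did not pass, beside 5.62% of all genes higher and 5.73% lower. The list's median log2 fold change was -0.06, beside -0.15 for all genes, and none of the 17 was called in the other 6 contrasts. *Bhlhe40*, the paralog of *Bhlhe41*, was read at 7.57 to 14.9 CPM without transgenes (median 11.3) and at 8.01 to 77.0 CPM with them (median 41.9), a log2 fold change of 1.82 (SE 0.42, FDR 0.0160, edgeR's quasi-likelihood test). Among the libraries labelled *Card9*-/-5xFAD, replicates 1 and 2 stood at 77.0 and 73.1 CPM while replicates 3 and 4 stood at 11.3 and 8.01 CPM, within the range without transgenes. *Bhlhe41* did not pass in the same comparison. Whether the 2 paralogs differed in response was not tested.

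The relatives that fell were of low abundance. *Irf4*, an interferon regulatory factor of lymphoid and dendritic cells, was read at 4.45 to 7.92 CPM without and 1.48 to 4.00 CPM with transgenes, 2 ranges that did not overlap (log2 fold change -1.05, SE 0.24, FDR 0.0151, edgeR's quasi-likelihood test). *Spic*, an ETS factor close to PU.1 that is known from iron-recycling macrophages, was read at 3.36 to 8.18 CPM without and 1.48 to 4.25 CPM with them (log2 fold change -1.08, SE 0.28, FDR 0.0321, edgeR's quasi-likelihood test). Counts were 10 to 174 for *Irf4* and 8 to 98 for *Spic*. The summed markers of dendritic cells, 6 genes, ran from 72.7 to 274 CPM without and 61.7 to 136 CPM with transgenes, and those of border macrophages, 8 genes, from 1105 to 2014 and from 462 to 1879 CPM. Their part in the fall of *Irf4* and *Spic* was not tested. Leaving out 5xFAD replicate 4 ended the call of *Spic* (-0.82, FDR 0.106). Without the 3 libraries with the fewest reads, 6 of the relatives passed, beside 33.0% of all genes.

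**Figure D4:**
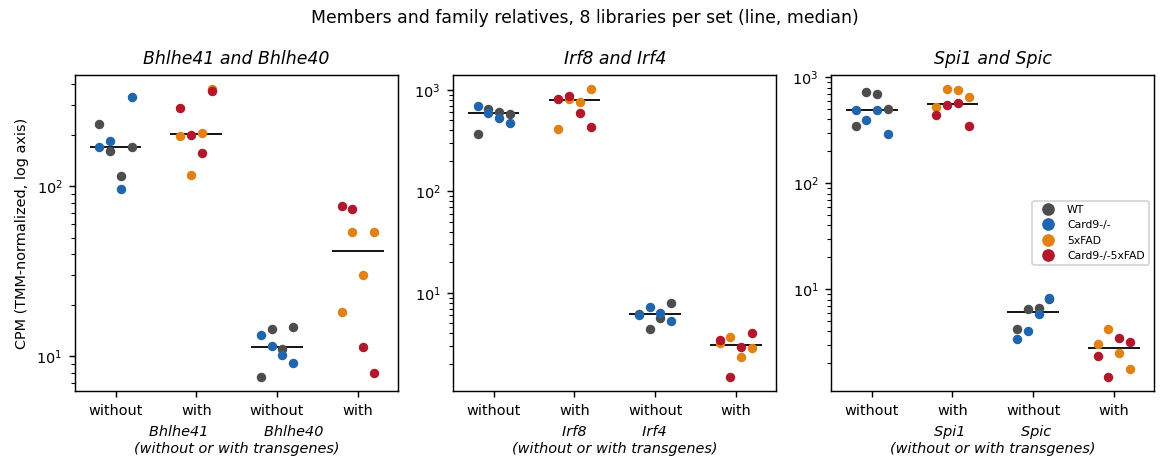
CPM (log axis) of *Bhlhe41* and *Bhlhe40*, *Irf8* and *Irf4*, and *Spi1* and *Spic* in 8 libraries without and 8 with transgenes. Points are libraries coloured by genotype and lines are medians. *Bhlhe40* rose from a median of 11.3 to 41.9 CPM and *Irf4* and *Spic* fell, while the members *Bhlhe41*, *Irf8* and *Spi1* gave no call. Only for *Irf4* did the libraries without and with transgenes not overlap.

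The other lists gave few calls. Of 25 further macrophage transcription factors, 24 were tested and none passed with the transgenes (median log2 fold change -0.29, beside -0.15 for all genes). None of the 18 microglial genes placed under the control of the members from background knowledge passed either (median 0.07), and 10 were higher and 8 lower. Among those lower, the purinergic receptor gene *P2ry12* stood at -0.12 (95% interval -0.73 to 0.50, FDR 0.842, edgeR's quasi-likelihood test). *Tmem119*, a surface marker of microglia and also among those lower, stood at -0.63 (95% interval -1.46 to 0.20, FDR 0.357, edgeR's quasi-likelihood test). Both were chosen after their values were seen and do not stand for the list. Without the 3 libraries with the fewest reads, 6 of the macrophage factors and 5 of the microglial genes passed, beside 33.0% of all genes, and DESeq2 called 3 and 1, beside 13.8%. Of the 18 early response genes, 2 fell, *Nr4a1* (log2 fold change -1.38, SE 0.37, FDR 0.0346) and *Hspa1a* (-0.80, SE 0.26, FDR 0.0807, edgeR's quasi-likelihood test), an orphan nuclear receptor and a heat shock chaperone, beside 5.73% of all genes lower, and 5 passed without the 3 libraries, beside 33.0% of all genes. *Hspa1a* passed in 5 of the 16 fits that left out 1 library. No gene of these lists passed in another contrast. All 18 early response genes were nonetheless higher in *Card9*-/-5xFAD against 5xFAD (median log2 fold change 0.64, beside 0.14 for all genes). With the *Card9* label over both transgene states 17 were higher and 1 lower (median 0.39, beside 0.13). Whether the list as a whole shifted was not tested.

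The genes whose log2 CPM ran most like each member over the 16 libraries are given as a description, since depth and other features of a library are shared by all its genes. *Sall1* was closest to *Fbrsl1* (r = 0.96) and *Rere* (r = 0.95). *Sall3* was closest to *Chd4* (r = 0.97) and *Tle4* (r = 0.97), and *Chd4* too was highest in the 3 libraries with the fewest reads. *Irf8* was closest to *Mfge8* (r = 0.96) and *Itm2c* (r = 0.96), and *Spi1* to *Manbal* (r = 0.95) and *Laptm4a* (r = 0.95). *Mef2a* was closest to *Ubr1* (r = 0.94) and *Malt1* (r = 0.91), and *Mef2c* to *Ccdc127* (r = 0.90) and *Msr1* (r = 0.89). *Runx1* was closest to *Pik3c2a* (r = 0.93) and *Mga* (r = 0.92), *Cebpa* to *Zdhhc8* (r = 0.93), and *Bhlhe41* to *Nudt3* (r = 0.90) and *Pgrmc2* (r = 0.88).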

How the data were processed

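Bulk RNA-seq of bead-sorted CD11b+ brain cells was analysed in 16 libraries, 4 per genotype. Per the labels and the study's methods, the authors used HISAT2 for alignment to mm10, SAMtools for quality filtering and HTSeq for counting, and the raw counts per gene that they deposited were used as given. Depth is given with the results. Samples were grouped by genotype label.

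Genes were filtered with filterByExpr (minimum count 10), normalized by TMM and tested with edgeR (4.0.16) by quasi-likelihood F test in 1 fit of 4 genotypes. P values were adjusted by Benjamini-Hochberg over all genes of a contrast, with FDR under 0.1 called. CPM carry TMM scaling, and log2 CPM a prior count of 2. DESeq2 (1.42.0), sva (3.50.0), another filter, threshold or scaling, a replicate block and leaving out each library were alternatives. The scripts were tested on simulated data. The members and gene lists were chosen with earlier results of these data known. Named genes were the 9 members, *Card9*, list genes that passed (up to 3 per direction) and the 2 genes most alike each member; *P2ry12* and *Tmem119* were chosen after their values were seen. Whether replicate libraries shared a litter is not given in the sources used here. No libraries of a genotype agreed within sampling noise. Sequences and positions of one member were not analysed here, and 1 of the genes most alike *Cebpa* is not reported here.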

Additional observations from a re-analysis of the deposited data

Results flagged for a closer look

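In 6 of 36 combinations of member and genotype, 1 of 4 libraries stood apart from the other 3, with a gap to its nearest neighbour above Dixon's 95% critical value, which chance exceeds in about 1 in 20 such sets. *Sall3* stood at 255 CPM in *Card9*-/- replicate 4 (the others at 60.8 to 91.0 CPM) and at 155 CPM in *Card9*-/-5xFAD replicate 4 (60.8 to 76.1 CPM), both among the 3 libraries with the fewest reads. *Cebpa* stood at 51.6 CPM in WT replicate 4 (13.4 to 18.4 CPM) and at 92.5 CPM in 5xFAD replicate 4 (22.4 to 25.2 CPM). *Sall1* stood at 266.5 CPM in the same 5xFAD library (184 to 195 CPM), and *Mef2a* at 415 CPM in 5xFAD replicate 1 (294 to 314 CPM).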

How the results depend on the processing

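*Cebpa*, the member with the fewest counts, rested on 70 in one library, and 4 libraries per genotype leave intervals too wide to show small differences. With the transgenes over both *Card9* labels, members called went from 0 to 2 with DESeq2, 4 with 1 surrogate variable, 2 without the 3 libraries with the fewest reads, 2 with the length slope and 0 to 2 when 1 library was left out. With 1 surrogate variable, 1 of 9 members was called in 5xFAD against WT (*Mef2a*), beside 2050 of all 14513 genes. In *Card9*-/-5xFAD against *Card9*-/-, 1 of 9 was called with it (*Sall1*), beside 2500 of all 14513 genes. Correlated pairs went from 8 to 1 without the 3 libraries and from 7 to 10 when 1 library was left out. Over the settings other than leaving out 1 library, 26 values of members reversed, 565 kept direction and call, and 12 gained a call. When 1 library was left out, these numbers were 42, 964 and 2. The fits without the 3 libraries and with the length slope were added after seeing the data, and the cause of the changes was not tested.

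Among the members, directions reversed only for log2 fold changes whose 95% interval held 0. In *Card9*-/- against WT, *Irf8* stood at -0.00065 with DESeq2 size factors, -0.0035 with DESeq2, -0.060 with at least 10 counts in every library, -0.0036 without the 3 libraries and -0.13 with the length slope, and *Mef2a* at -0.023 with at least 10 counts. In *Card9*-/-5xFAD against *Card9*-/-, *Cebpa* stood at 0.028 with no filter, 0.0011 with at least 10 counts, 0.16 with the replicate block and 0.48 without the 3 libraries. In 5xFAD against WT, *Mef2c* stood at 0.018 with at least 10 counts and 0.013 in the fit of those genotypes alone, and *Sall3* at 0.33 without the 3 libraries, where it stood at 0.12 over both labels. Over both transgene states, *Sall1* stood at -0.0040 with at least 10 counts and -0.027 with the length slope, and without the 3 libraries *Irf8* stood at 0.00099 and *Bhlhe41* at -0.024. In *Card9*-/-5xFAD against 5xFAD, *Sall3* stood at -0.049, *Irf8* at 0.0056 and *Bhlhe41* at -0.055 without the 3 libraries, and *Cebpa* at -0.085 with the length slope. In the interaction without the 3 libraries, *Mef2a* stood at -0.019, *Irf8* at 0.0091 and *Spi1* at 0.078, and with the replicate block *Bhlhe41* stood at 0.066.

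Leaving out 1 library at a time turned these values through 0. In 5xFAD against WT, *Sall3* ran from -0.39 to 0.29 and *Mef2c* from -0.17 to 0.11. In *Card9*-/-5xFAD against *Card9*-/-, *Sall3* ran from -0.77 to 0.26 and *Cebpa* from -0.43 to 0.28. With the transgenes over both labels, *Sall3* ran from -0.49 to 0.026 and *Mef2c* from -0.20 to 0.028. In *Card9*-/- against WT, *Sall3* ran from -0.12 to 1.02, *Mef2a* from -0.017 to 0.18, *Irf8* from -0.093 to 0.15 and *Bhlhe41* from -0.18 to 0.42. In *Card9*-/-5xFAD against 5xFAD, *Sall1* ran from -0.14 to 0.062, *Sall3* from -0.039 to 0.52, *Mef2c* from -0.048 to 0.22, *Irf8* from -0.36 to 0.012, *Cebpa* from -0.19 to 0.78 and *Bhlhe41* from -0.053 to 0.37. With the *Card9* label over both transgene states, *Irf8* ran from -0.15 to 0.035 and *Bhlhe41* from -0.0027 to 0.29. In the interaction, *Sall3* ran from -0.69 to 0.46, *Mef2c* from -0.17 to 0.054, *Spi1* from -0.22 to 0.10, *Runx1* from -0.29 to 0.021 and *Bhlhe41* from -0.26 to 0.35.

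Counts of all genes called moved further. With the transgenes over both labels, 1647 became 1070 with no filter, 2487 with DESeq2, 920 at FDR 0.05, 5708 with 1 surrogate variable, 4776 without the 3 libraries and 3556 with the length slope, and 955 to 3053 without 1 library, highest without *Card9*-/- replicate 4. In 5xFAD against WT, 304 became 171 with at least 10 counts, 565 with DESeq2, 2050 with 1 surrogate variable, 1864 without the 3 libraries, 916 with the length slope and 164 to 386 without 1 library. In *Card9*-/-5xFAD against *Card9*-/-, 286 became 185 with no filter, 148 with at least 10 counts, 812 with DESeq2, 96 in the fit of those genotypes alone, 162 at FDR 0.05, 2500 with 1 surrogate variable, 1494 without the 3 libraries, 845 with the length slope and 120 to 720 without 1 library. With the *Card9* label over both transgene states, 4 became 2 with DESeq2 size factors, at FDR 0.05 and without the 3 libraries, 0 with at least 10 counts, 53 with DESeq2, 679 with 1 surrogate variable, 7 with the length slope and 0 to 8 without 1 library. The 0 genes of *Card9*-/- against WT became 2 with no filter, 5 with DESeq2, 11 with 1 surrogate variable and 3 with the length slope, and those of *Card9*-/-5xFAD against 5xFAD became 1, 2 and 1 under the first 3 of these. Replicate numbers did not pair the libraries (15 of 24 same-numbered pairs had r over 0.1, lowest -0.71, and 5 of 16 libraries correlated best with their own number), and the replicate block moved the transgene count to 1871 and called no member (*Sall1* -0.49, FDR 0.116, edgeR's quasi-likelihood test).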
